A study of Mus musculus with 15 samples.

Results

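Rec8 is the gene of a cohesin subunit, and it is described here with 9 other cohesin genes in mouse kidney. The 10 genes are 3 meiotic subunits (Rec8, Smc1b and Stag3), 5 subunits of cohesin in dividing and resting body cells (Rad21, Smc1a, Smc3, Stag1 and Stag2), the loader Nipbl and the release factor Wapl. Each was measured by 1 probe set that is annotated to it alone, so the 10 genes are 10 of 22180 genes and 10 of 23521 probe sets tested. Rec8 was singled out because its kidney level differed between the genotypes, while the other 9 were taken for their place in cohesin. The Rec8 difference is therefore given as a description without a test.

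RNA came from the kidneys of mice aged about 6 months, 1 array per mouse. The 7 wild-type mice (Grhl1+/+) are replicates 1 to 7, and the 8 knockout mice (Grhl1-/-) are replicates 8 to 15. The Grhl1 protein belongs to the grainyhead family of DNA-binding factors, active in epithelia, and the comparison asks how kidney transcripts differ without it. The sources used here name no strain, sex or deleted part of Grhl1. Values are log2 summaries of a probe set by robust multi-array average (RMA), and differences are knockout minus wild type on the log2 scale. Because probe sets bind with different strength, levels are compared within a gene and not between genes. The share of probe sets with a lower mean is given only to show how dim a probe set read.

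Cohesin is a ring that holds sister chromatids together and folds DNA into loops. A pair of SMC proteins is closed by a kleisin, to which a STAG protein binds. In body cells the kleisin is Rad21, whereas germ cells in meiosis use Rec8 with Smc1b and Stag3, and Smc3 serves in both. Nipbl loads the ring and starts loop formation, and Wapl releases it. Non-dividing kidney cells keep cohesin for loop formation.

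The upstream sequences of the meiotic genes are shown because Grhl1 is a DNA-binding factor and Rec8 was the meiotic member whose level differed. They are the 250 bases before the gene start on the coding strand, from RefSeq on build GRCm38.p6, at chr14:55617916-55618165 (plus strand) for Rec8, chr15:85131958-85132207 (minus strand) for Smc1b and chr5:138280259-138280508 (plus strand) for Stag3. Capitals mark CCAAT boxes, which read ATTGG on the opposite strand.
Rec8: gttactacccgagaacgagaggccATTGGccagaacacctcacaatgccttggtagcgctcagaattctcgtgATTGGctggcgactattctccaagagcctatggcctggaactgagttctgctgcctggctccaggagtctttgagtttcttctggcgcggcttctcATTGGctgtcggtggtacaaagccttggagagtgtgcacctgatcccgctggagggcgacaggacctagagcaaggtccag
Smc1b: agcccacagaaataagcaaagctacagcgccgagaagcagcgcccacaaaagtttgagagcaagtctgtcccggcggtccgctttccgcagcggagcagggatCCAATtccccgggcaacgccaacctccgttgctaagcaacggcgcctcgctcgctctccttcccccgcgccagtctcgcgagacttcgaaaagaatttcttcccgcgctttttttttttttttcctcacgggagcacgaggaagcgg
Stag3: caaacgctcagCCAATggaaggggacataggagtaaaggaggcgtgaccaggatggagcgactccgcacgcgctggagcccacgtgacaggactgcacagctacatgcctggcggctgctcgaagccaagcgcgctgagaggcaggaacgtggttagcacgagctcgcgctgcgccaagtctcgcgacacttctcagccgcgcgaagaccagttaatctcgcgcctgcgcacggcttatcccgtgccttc

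Rec8 has 3 CCAAT boxes in this stretch, at 226, 177 and 81 bases before the start, all as ATTGG. Smc1b and Stag3 have 1 each, as CCAAT. Of all promoters of this length, 33.8% hold at least 1 and 2.79% hold 3 or more. CG dinucleotides numbered 10 in the Rec8 stretch, 25 in Smc1b and 26 in Stag3. Promoters of 300 bases, reaching 50 bases past the start, were matched for 7 of the 10 genes, not for Rad21, Stag2 and Nipbl. The grainyhead motif AACCGGTT, searched on both strands, was found in none of the 7 and in 0.146% of 32851 promoters. Its looser form AACNNGTT, which includes it, was found in none of the 7 and in 4.20% of all, and the E2F motif GGCGGGAA in none of the 7 and in 2.19% of all. These letters not being in a window of this length says nothing about binding of Grhl1 there or elsewhere.

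The labelled tissue and genotype were checked first. The mean of 9 measured kidney genes, among them Slc34a1, Umod and Aqp2, lay between 11.80 and 11.97 in every sample. The Grhl1 probe set read 4.96 to 5.25 in wild-type and 4.40 to 4.92 in knockout kidneys. These did not overlap, as in 0.123% of all probe sets, and where the probes lie relative to the deletion is unknown here. The wild-type kidneys 6 and 7 and the knockout kidneys 13 to 15 lacked Y-linked transcripts, which the other 10 kidneys (5 of each genotype) had. Adrenal cortex transcripts marked the wild-type kidneys 2 and 3 and the knockout kidneys 10 to 13. Liver transcripts marked the wild-type kidneys 3 and 7 and the knockout kidney 10.

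Rec8, the kleisin best known from meiosis, was lower in every knockout kidney than in any wild-type kidney. Wild-type replicates 1 to 7 had log2 values of 5.81, 5.89, 6.14, 6.07, 6.10, 6.40 and 6.10. The values were 5.01, 5.03, 5.16, 4.77, 5.06, 4.90, 5.22 and 5.05 in knockout replicates 8 to 15. A gap of 0.59 log2 units separated the lowest wild-type kidney, replicate 1, from the highest knockout kidney, replicate 14. The means were 6.08 ± 0.19 (SD, n = 7) and 5.02 ± 0.14 (SD, n = 8), and the fitted difference was -1.05 (SE 0.08, 95% interval -1.23 to -0.88), a 2.07-fold lower value. The SE, interval and fold do not allow for the choice of Rec8 on this difference. The fold is on the RMA scale, and whether the remaining knockout signal is Rec8 RNA or background was not tested.

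In limma over all probe sets 3 passed an adjusted p of 0.05 (0.0128%), 2 lower (0.00850%) and 1 higher (0.00425%), and groups did not overlap in 29 (0.123%). Rec8 is among the lower ones, and nothing is read from this because it was chosen on that contrast. By size its decrease ranked 25 among the 23521 probe sets. In whole kidney RNA, fewer cells that express Rec8 and less Rec8 RNA per cell cannot be told apart.

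**Figure D1:**
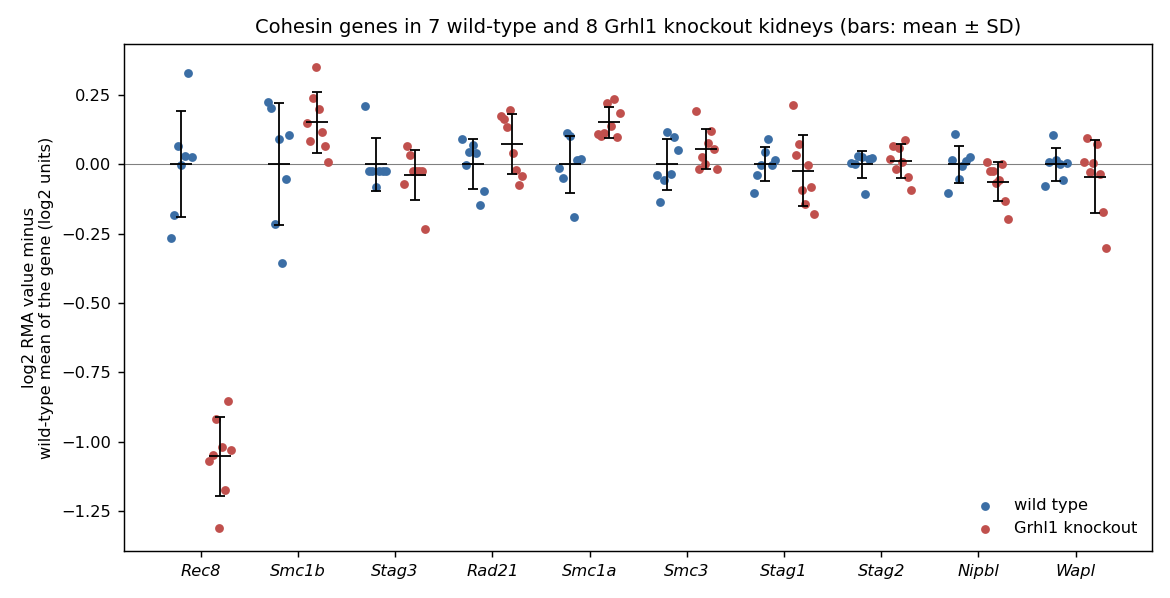
Log2 RMA values of the 10 cohesin genes (horizontal axis) in each kidney, minus the gene's wild-type mean (vertical axis, log2 units), for 7 wild-type (blue) and 8 knockout mice (red), with mean ± SD as black bars. All 8 knockout values of Rec8 lie below its wild-type values, while in each of the other 9 genes the genotypes overlap.

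The Rec8 difference is described here in sets of kidneys defined by other transcripts. Every knockout value lay below every wild-type value, so each set had to show a decrease. The Rec8 difference was -1.0 between the 5 wild-type and 5 knockout samples with Y-linked transcripts, and -1.20 between the 2 and 3 samples without them. It was -1.05 between the 2 wild-type and 4 knockout samples with adrenal cortex transcripts, and -1.02 between the 5 and 4 samples without them. Between the 2 wild-type samples and the 1 knockout sample that carried liver transcripts it was -0.96, and without these 3 samples it was -1.05. With neither adrenal nor liver transcripts, 4 wild-type kidneys read 5.81 to 6.40 and 4 knockout kidneys 5.01 to 5.22, a difference of -1.02.

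No gene of the marker lists for adrenal cortex, liver or lymphocytes passed the threshold, against 0.0128% of all probe sets. The lowest limma adjusted p-values were 0.980, 0.954 and 0.738 in that order. At an unadjusted p under 0.05, 0 adrenal and 0 liver genes and 2 lymphocyte genes (Ighm and Jchain, both lower) were found, against 5.55% of all probe sets. Of 8 measured adrenal cortex genes, 8 were higher on average in knockout kidneys, and their list mean ranged from 4.56 to 8.12 in wild-type and from 4.70 to 9.29 in knockout samples. Of 10 liver genes, 9 were lower, with ranges of 6.95 to 10.96 and 6.76 to 8.95. Of 10 lymphocyte genes, 9 were lower, with ranges of 6.73 to 7.52 and 6.28 to 7.84, and the part of lymphocytes in the Rec8 difference was not tested. Genes of germ cells, in which Rec8 is best known, had wild-type means, over 12 such genes, that ran from 3.40 (Dazl) to 5.50 (Sohlh1). Their list mean ranged from 4.43 to 4.66 in wild-type and from 4.42 to 4.61 in knockout samples. Of the 12, 5 were higher and 7 lower, and 0 passed in limma, against 0.0128% of all probe sets. Ddx4 was the 1 with an unadjusted p under 0.05 (0.08, SE 0.03, limma adjusted p = 0.841), against 3.49% of all probe sets that were higher at that level.

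Neither of the other meiotic subunits passed the threshold. Smc1b, which replaces Smc1a in the meiotic ring, read a median of 3.74 (3.29 to 3.87) in wild-type and 3.78 (3.65 to 3.996) in knockout kidneys. All 8 knockout values lay above the wild-type mean, only 2 of them above the highest wild-type kidney, and the difference of 0.15 (SE 0.08, limma adjusted p = 0.950) missed the threshold. Without wild-type replicate 5 it was 0.092, and without the samples that carry adrenal transcripts 0.074. Stag3, the meiotic STAG protein, differed by -0.04 (SE 0.05, limma adjusted p = 0.997), with a 95% interval of -0.15 to 0.07. It was -0.0033 without wild-type replicate 1 and -0.011 without knockout replicate 15, its highest and lowest kidneys.

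The Stag3 probe set gave exactly the same value, 4.945, in 9 of 15 kidneys, 5 wild-type and 4 knockout. A value repeated in 9 or more arrays occurred in 6 of 23521 probe sets (0.0255%), and the other cohesin genes repeated a value in at most 3. Stag3 thus carries little information on single kidneys. Rad21l, a further meiotic kleisin, read 3.22 ± 0.18 (SD, n = 7) in wild-type and 3.13 ± 0.17 (SD, n = 8) in knockout kidneys (limma adjusted p = 0.984).

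Smc1a, the SMC partner of Smc3 in body cells and encoded on the X chromosome, came nearest to a difference among the other 9. Wild-type replicates 1 to 7 had 8.33, 8.29, 8.45, 8.44, 8.15, 8.36 and 8.36. The values were 8.45, 8.44, 8.45, 8.56, 8.48, 8.57, 8.44 and 8.52 in knockout replicates 8 to 15. All 8 knockout kidneys exceeded the wild-type mean and 4 exceeded the highest wild-type kidney, so the groups overlapped. The difference was 0.15 (SE 0.05, 95% interval 0.05 to 0.25), a 1.11-fold higher value, and limma's adjusted p was 0.665. The exact permutation test of this gene alone gave p = 0.00186, unadjusted for the other genes, and the smallest limma adjusted p over all alternative settings was 0.333.

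None of the remaining subunits passed the threshold. Rad21, the kleisin of body cells, differed by 0.07 (SE 0.06, limma adjusted p = 0.979), with a 95% interval of -0.05 to 0.19. Its values were 10.24 to 10.48 in wild-type and 10.32 to 10.59 in knockout kidneys, 4 of the 8 above the highest wild-type kidney. Smc3, the SMC subunit of both kinds of ring, differed by 0.05 (SE 0.05, limma adjusted p = 0.984), and its sign turned among the samples without Y-linked transcripts (-0.02). The STAG proteins of body cells differed by -0.02 (Stag1, SE 0.06) and 0.01 (Stag2, SE 0.04), both at a limma adjusted p of 0.997, with intervals of -0.14 to 0.10 and -0.07 to 0.09. Both signs turned in other settings, Stag1 among the samples with Y-linked transcripts (0.02) and Stag2 without those that carry adrenal transcripts (-0.0066) or without wild-type replicate 5 (-0.0068).

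The factors that move the ring also missed the threshold. Nipbl read 8.86 to 9.08 in wild-type and 8.77 to 8.98 in knockout kidneys, a difference of -0.06 (SE 0.04, limma adjusted p = 0.975). Wapl differed by -0.04 (SE 0.06, limma adjusted p = 0.997), turned to 0.02 among the samples with Y-linked transcripts, and was lowest in knockout replicates 14 and 15 at 8.43 and 8.30. Over the 9 genes beside Rec8, 0 passed in limma, against 0.0128% of all probe sets, and 1 (Smc1a) had an unadjusted p under 0.05, against 5.55%. So few probe sets passed that 0 of 9 does not set these genes apart. Their median absolute difference was 0.05, as over all probe sets, where it was also 0.05, and 5 of the 9 were higher and 4 lower.

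**Figure D2:**
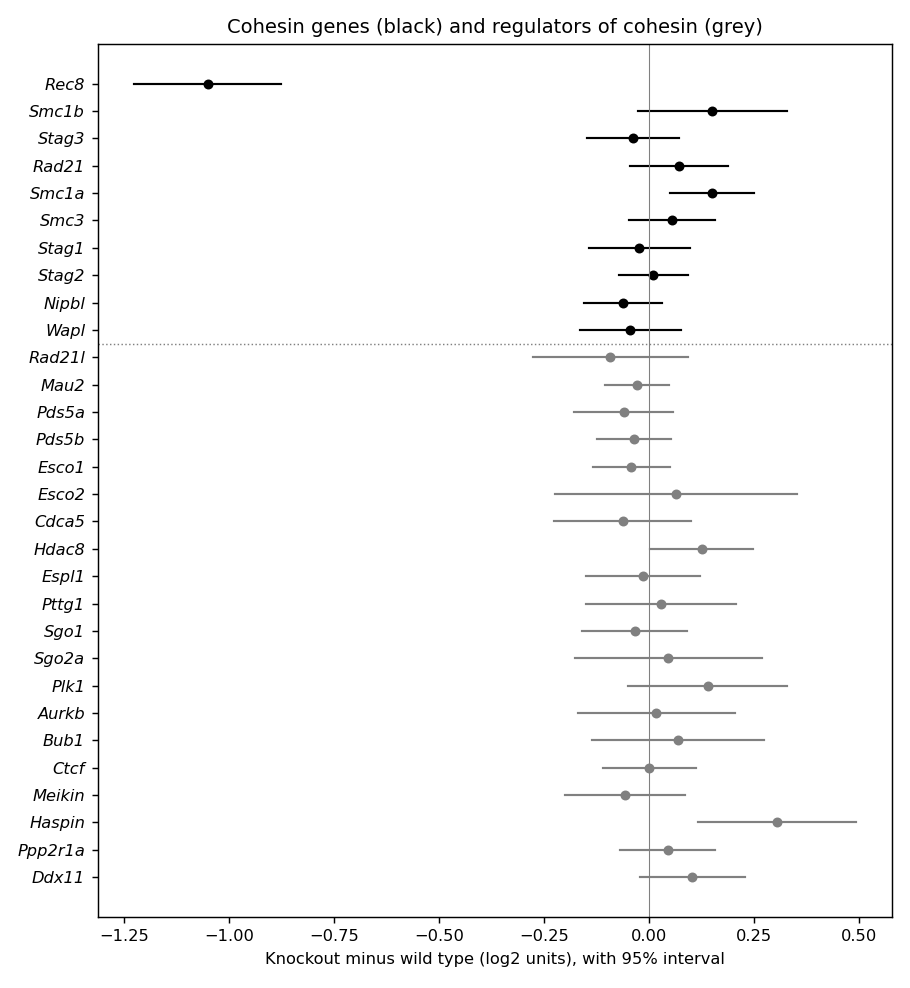
Difference between knockout and wild-type kidneys (horizontal axis, log2 units) for the 10 cohesin genes (black) and the list of 20 genes (grey), with points as fitted differences and lines as 95% intervals of the limma fit. The 20 are regulators of cohesin and the meiotic kleisin Rad21l. Rec8 lies at -1.05, and all other genes lie between -0.09 and 0.31. The Rec8 interval does not allow for its choice on this difference.

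Genes that regulate cohesin were taken from a list of 20, which also holds the meiotic kleisin Rad21l. All were measured, and 0 passed in limma, against 0.0128% of all probe sets. Haspin, a kinase of histone H3 at centromeres, read 5.24 ± 0.18 (SD, n = 8) in knockout and 4.93 ± 0.18 (SD, n = 7) in wild-type kidneys, a difference of 0.31 (SE 0.09, limma adjusted p = 0.588). Hdac8, which removes acetyl groups from Smc3, differed by 0.13 (SE 0.06, limma adjusted p = 0.894). These were the 2 with an unadjusted p under 0.05, both higher, against 3.49% of all probe sets that were higher at that level. Mau2, the partner of Nipbl, differed by -0.03, the ring-bound factors Pds5a and Pds5b by -0.06 and -0.04, the acetyltransferase Esco1 by -0.04 and Ctcf, which stops loop growth, by 0.00067. The list's median difference was 0.0089, beside 0.0083 over all probe sets.

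None of the genes of the related SMC complexes passed the threshold. Of 15 genes of condensin, the SMC5/6 complex and Smchd1, 14 were measured, and 0 passed in limma, against 0.0128% of all probe sets. Those above 0 numbered 14 of 14, with a median of 0.06, beside 0.0083 over all probe sets. Leaving out 1 sample brought this count to between 11 and 13, with medians of 0.04 to 0.08. Smc6 (7.7e-05), Smc2 (0.00097), Ncapg2 (0.0022) and Ncaph (0.0066) lay closest to 0. Nsmce3 (0.14, SE 0.05, limma adjusted p = 0.736) and Nsmce4a (0.11, SE 0.05, limma adjusted p = 0.889), both subunits of the SMC5/6 complex, had an unadjusted p under 0.05, which 3.49% of all probe sets had with a higher value.

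None of the other genes of meiosis passed the threshold. Of 32 listed, 31 were measured, and 0 passed in limma, against 0.0128% of all probe sets. When probe sets above the median of all values in fewer than 7 arrays were left out as dim, 4 of the 31 remained. Among the 31, 13 were higher and 18 lower, with a median of -0.02, beside 0.0083 over all probe sets. This balance turned to 20 higher and 11 lower without wild-type replicate 1 (median 0.019), to 16 and 15 without knockout replicate 9, and to 22 and 9 in the samples without Y-linked transcripts (median 0.072). Prdm9, which places meiotic recombination sites, differed by 0.20 (SE 0.06, limma adjusted p = 0.562) and Spata22, a partner of Meiob in recombination, by -0.15 (SE 0.07, limma adjusted p = 0.894). These 2 had an unadjusted p under 0.05, 1 in each direction, against 3.49% (higher) and 2.06% (lower) of all probe sets. The axis and synapsis genes Sycp1, Sycp2 and Hormad1 differed by -0.08, 0.08 and 0.07.

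Proliferation genes, which accompany the need for cohesion between sister chromatids, were measured for 14 of 15. In limma 0 passed, against 0.0128% of all probe sets. Rrm2 (-0.18, SE 0.08, limma adjusted p = 0.896) had an unadjusted p under 0.05, as had 2.06% of all probe sets with a lower value, and Mcm2 differed by 0.10 (SE 0.05, limma adjusted p = 0.914). While 12 of the 14 were higher in knockout kidneys, with a median of 0.09, 6 of 14 were higher among the samples with Y-linked transcripts, with a median of -0.04, and 11 of 14 among those without, with a median of 0.23. In that last set, of 2 wild-type and 3 knockout kidneys, 7 of the 14 had an unadjusted p under 0.05 and 0 passed in limma. The share of all probe sets at that level was not computed for this set, so nothing is read from the count.

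None of the genes beside Rec8 on chromosome 14 passed the threshold. Of the 10 nearest measured genes on each side, 0 of 20 passed in limma, against 0.0128% of all probe sets. The genotypes overlapped in all 20, while they did not overlap in 0.123% of all probe sets. Irf9, a transcription factor of the interferon response that directly precedes Rec8, differed by -0.07 (SE 0.09, limma adjusted p = 0.997). Ipo4, a nuclear import receptor that directly follows it, differed by 0.06 (SE 0.04, limma adjusted p = 0.975). Tssk4, a testis kinase gene and the third after Rec8, was the 1 neighbour with an unadjusted p under 0.05 (-0.13, SE 0.06, limma adjusted p = 0.896), against 5.55% of all probe sets. The proteasome activator genes Psme1 and Psme2 differed by -0.02 and 0.02, and the largest neighbour difference was 0.17 in Tgm1, a transglutaminase gene (SE 0.11, limma adjusted p = 0.973).

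**Figure D3:**
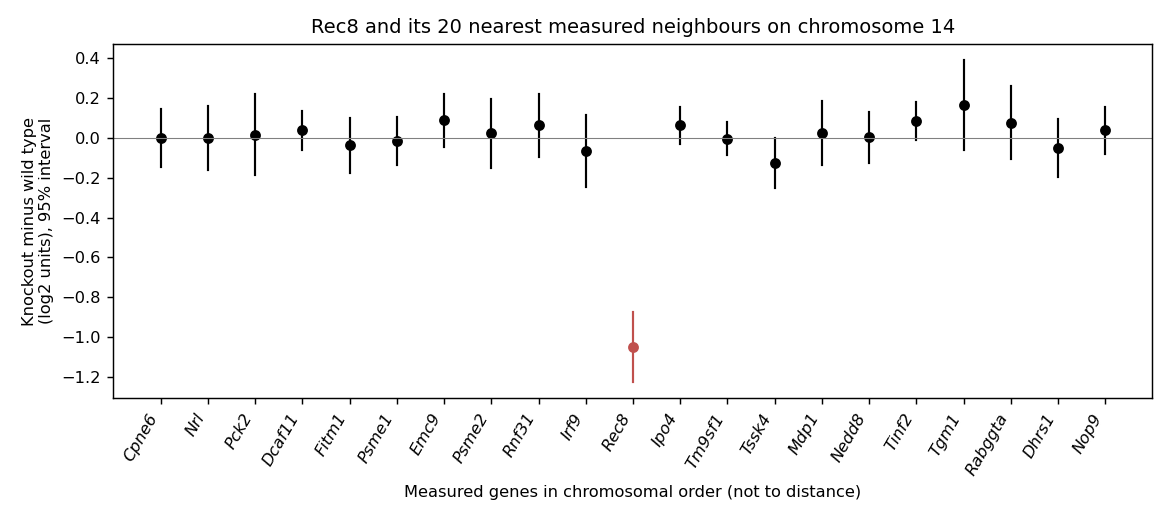
Difference between knockout and wild-type kidneys (vertical axis, log2 units, with 95% intervals of the limma fit) for Rec8 (red) and the 10 nearest measured genes on each side of it on chromosome 14, in gene order without distances. The 20 neighbours lie between -0.13 and 0.17, and Rec8 lies at -1.05. The Rec8 interval does not allow for its choice on this difference.

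Kidneys with and without Y-linked transcripts were compared in 1 limma model with the genotype. Rad21 was higher in those with Y-linked transcripts, by 0.18 (SE 0.03, limma adjusted p = 0.0012). Wild-type kidneys with Y-linked transcripts read 10.48, 10.39, 10.44, 10.46 and 10.43 in replicates 1 to 5, and those without read 10.24 and 10.29 in replicates 6 and 7. Knockout kidneys with them read 10.56, 10.55, 10.52, 10.59 and 10.43 in replicates 8 to 12, and those without read 10.37, 10.32 and 10.35. The sets did not overlap within either genotype. The share of all probe sets that separate in this way was not computed, and 24.9% of them passed in this comparison.

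Rad21 was the 1 of 10 cohesin genes that passed in this comparison, in which 24.9% of all probe sets passed, and 35.5% had an unadjusted p under 0.05. Wapl differed by 0.13 (SE 0.05, limma adjusted p = 0.0729). Rec8 differed by -0.14 (SE 0.08, limma adjusted p = 0.252), and the X-linked genes Smc1a and Stag2 by -0.03 (SE 0.05, limma adjusted p = 0.696) and 0.01 (SE 0.04, limma adjusted p = 0.852). Adjusted for the Y-linked mean, the genotype difference of Rad21 was 0.08 (SE 0.03, limma adjusted p = 0.486). A model in which the genotype difference may depend on Y-linked transcripts called 0 of the 10 genes in limma, with 0 at an unadjusted p under 0.05, against 0 and 7.04% of all probe sets. For Rec8 that term was 0.20 (SE 0.16, limma adjusted p = 0.853).

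**Figure D4:**
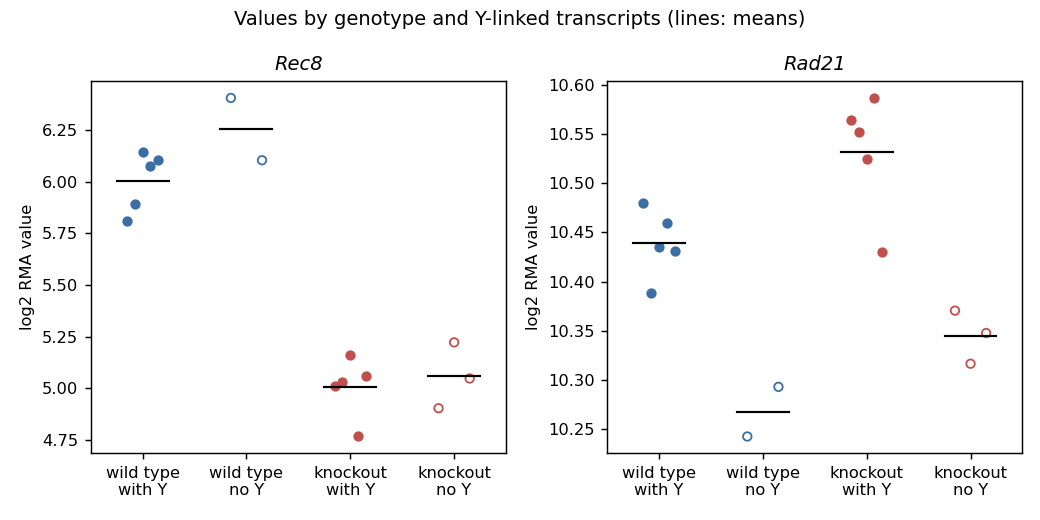
Log2 RMA values (vertical axes, different ranges) of Rec8 and Rad21 in wild-type (blue) and knockout (red) kidneys, split by the presence (filled) or absence (open) of Y-linked transcripts, with black lines for means. Rec8 separates by genotype, while Rad21 separates by Y-linked transcripts within each genotype. In limma 24.9% of all probe sets passed the comparison by Y-linked transcripts.

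Co-variation was examined within each genotype, because the Rec8 values of the genotypes form separate clusters. All 45 pairs of the 10 genes were correlated over the 7 wild-type and over the 8 knockout kidneys, with exact permutation p-values adjusted over the 45 pairs of a genotype. One pair passed, Smc1a with Stag2 in wild-type kidneys, at Pearson r = 0.92 (exact p = 0.000198, adjusted p = 0.00893) and Spearman rho = 1.0 (exact p = 0.000397, adjusted p = 0.0179). The genes encode an SMC and a STAG subunit of the body-cell ring, and both lie on the X chromosome. Both were lowest in wild-type replicate 5, at 8.15 and 8.25, and r was 0.89 without the 2 kidneys farthest from the Smc1a median. Leaving out 1 kidney gave r from 0.92 to 0.95, but no pair passed then. The smallest exact p of 6 kidneys (0.00139) cannot pass alone among 45 pairs. The pair had this p without any of the other kidneys, but an exact p of 0.0236 without replicate 5, the lowest in both genes. In knockout kidneys the pair had r = 0.31 (exact p = 0.455, adjusted p = 0.707) and rho = 0.31 (exact p = 0.462, adjusted p = 0.732), and whether the genotypes differ in this was not tested.

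Rec8 was not correlated past the threshold with any other cohesin gene in either genotype. In wild-type kidneys its r ranged from -0.69 with Rad21 to 0.61 with Smc3. Its largest rank correlation there was with its meiotic partner Smc1b, at rho = -0.82 (exact p = 0.0341, adjusted p = 0.768), with r = -0.54 (exact p = 0.210, adjusted p = 0.831) and r = -0.65 without the 2 kidneys farthest from the Rec8 median. For Rad21 the exact p was 0.0867 (adjusted p = 0.780), rho was -0.57 (exact p = 0.200, adjusted p = 0.897), and r was 0.09 without the 2 kidneys farthest from the Rec8 median, so that it rests on them. One of these was replicate 6, which lacks Y-linked transcripts and holds the highest Rec8 and the lowest Rad21 value. In knockout kidneys r ranged from -0.78 with Smc1a to 0.05 with Stag3. For Smc1a the exact p was 0.0191 (adjusted p = 0.215), rho was -0.62 (exact p = 0.115, adjusted p = 0.647), and r was -0.66 without the 2 kidneys farthest from the Rec8 median, while it was 0.17 in wild-type kidneys (exact p = 0.720, adjusted p = 0.831).

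Among the other pairs, Nipbl and Wapl, which load and release the ring, had r = 0.79 in wild-type kidneys (exact p = 0.0488, adjusted p = 0.780) and 0.83 in knockout kidneys (exact p = 0.0163, adjusted p = 0.215). Spearman's rank correlation was 0.57 (exact p = 0.200, adjusted p = 0.897) and 0.50 (exact p = 0.209, adjusted p = 0.732). Without the 2 kidneys farthest from the Nipbl median r turned to -0.36 and -0.37, so that both relations rest on those kidneys. In all, 2 of 45 pairs in wild-type and 6 of 45 in knockout kidneys had an unadjusted exact p under 0.05 by Pearson's r. Those in knockout kidneys included Stag2 with Wapl (r = 0.79) and with Nipbl (0.81). Stag1 with Nipbl (0.76) and Stag3 with Wapl (0.78) were also among them. Without the 2 kidneys farthest from the median of the first gene named, r was 0.77, 0.48, 0.59 and -0.13 in that order. None of these passed the adjusted threshold.

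**Figure D5:**
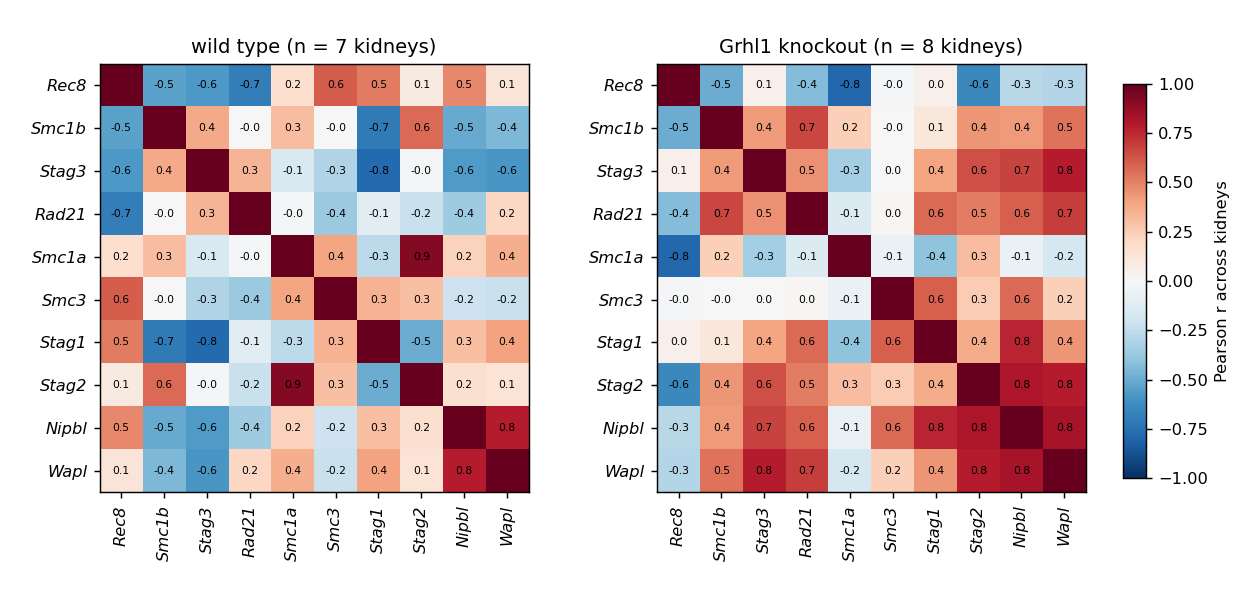
Pearson correlation (colour and number, from -1 in blue to 1 in red) between the log2 RMA values of each pair of the 10 cohesin genes across 7 wild-type kidneys (left) and 8 knockout kidneys (right). Smc1a and Stag2 in wild-type kidneys, at 0.92, were the 1 pair past the adjusted threshold.

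Rec8 was also set against Grhl1 and against Cys1 and Greb1, the other 2 probe sets past the threshold. Cys1 and Greb1 lie on chromosome 12, as does the targeted gene Grhl1, while Rec8 lies on chromosome 14. Whether this position bears on their differences was not tested. The Grhl1 difference itself was -0.38 (SE 0.07, limma adjusted p = 0.113) and missed it. Within knockout kidneys its correlation with Grhl1 was r = -0.63 (exact p = 0.0926, adjusted p = 0.491 over 6 relations) and rho = -0.55 (exact p = 0.171, adjusted p = 0.665), with r = -0.33 without the 2 farthest kidneys. With Cys1, a cilium gene lower in the knockout, r was 0.54 in knockout kidneys (exact p = 0.164, adjusted p = 0.491) and rho 0.43 (exact p = 0.299, adjusted p = 0.665), with r = 0.25 without the 2 farthest kidneys. With Greb1, an oestrogen-responsive gene higher in the knockout, r was 0.22 (exact p = 0.602, adjusted p = 0.846) and rho 0.19 (exact p = 0.665, adjusted p = 0.665), with r = -0.44 without the 2 farthest kidneys. In wild-type kidneys the 3 values of r were -0.11, 0.40 and -0.09, and none of the 6 relations passed.

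The genes whose values most resembled those of Rec8 were sought over all 15 arrays after each genotype mean had been subtracted. Ppp1ca, a catalytic subunit of protein phosphatase 1, came first of 22179 genes at r = 0.91, with 0.91 in each genotype. Tbc1d12, Nelfe (a subunit of the negative elongation factor), Gm1141 and Mmab (an enzyme of cobalamin metabolism) followed at 0.87, 0.86, 0.84 and 0.83. The lowest values were those of Gm15880 and the microRNA gene Mir5120, both at -0.88, Shc2 (an adaptor of receptor tyrosine kinases) at -0.87, and H2-Bl and A830018L16Rik, both at -0.84. The 15 arrays share their normalization, and the 10 genes are the extremes of 22179, so the values of r describe these arrays and have no p-value. The genotype differences of these 10 genes ranged from -0.11 in Gm1141 to 0.15 in H2-Bl, and that of Ppp1ca was -0.0014 (SE 0.04). Among the cohesin genes, Smc3 stood nearest to Rec8, at r = 0.35 and place 3670, and Rad21 farthest, at r = -0.54 and place 21365.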

How the data were processed

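Kidney RNA of 15 mice was measured on a 1-colour array, with 500 ng of total RNA labelled per the labels' protocols. RMA, named in the submitters' processing notes, is how the authors made the deposited log2 values, 1 for each probe set and array. RMA subtracts background and gives all arrays 1 distribution, so a shift of most transcripts would be lost, and dim probe sets are compressed. The version of RMA and the genome build are not given in the sources used here. Scanner files were not used.

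The 23521 probe sets with 1 gene symbol, of 41345, were fitted with limma 3.58.1 in R 4.3.3 (lmFit and eBayes, genotype alone, two-sided, Benjamini-Hochberg over all, threshold 0.05). Symbols were updated by Entrez ID for 23328. Intervals are 95% intervals of the moderated fit. The model with Y-linked transcripts and no interaction was added after the data were seen, as were the motifs. Presence of Y-linked transcripts means a mean of Eif2s3y, Uty and Kdm5d above the midpoint of its range. Liver or adrenal transcripts mean a list mean over 1 log2 unit above the median. Correlations used scipy 1.17.1 with exact enumeration of all pairings. The fit was tested on simulated data.

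The cohesin genes and all lists were chosen with earlier results of these data known. Named were all cohesin genes and the 2 smallest unadjusted p-values in each of the lists of regulators, SMC complexes, meiosis and proliferation. Also named were adjacent neighbours of Rec8 and those with unadjusted p under 0.05, and the 5 highest and 5 lowest r to Rec8. Other genes named were chosen after their values were seen. In lists, the probe set with the highest mean stood for a gene.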

Additional observations from a re-analysis of the deposited data

Results flagged for a closer look

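Single kidneys stood apart from the rest of their genotype in 3 of the 20 sets of values tested, 10 genes in 2 genotypes. Chance gives such a gap in about 1 in 20 sets. Stag3 read 5.18 in wild-type replicate 1, the highest of its group, and 4.74 in knockout replicate 15, the lowest. Since 9 of the 15 Stag3 values are identical, small departures stand out there. Stag2 read 8.25 in wild-type replicate 5, the lowest of its group, in the kidney that also held the lowest Smc1a value.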

How the results depend on the processing

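No paired analysis was possible because the genotypes share no replicate numbers. The Rec8 difference lay between -1.20 and -0.997 over 24 alternative settings, and over the 15 that left out 1 sample between -1.10 and -0.997. Of the other 9 cohesin genes, 0 passed in limma under any of the 24 settings (23 for Smc1b and Stag3, which are too dim for the filtered one). Turned signs were seen for Stag2 without samples with adrenal transcripts (-0.0066), in samples without Y-linked transcripts (-0.038) and leaving out 1 sample (-0.0068 to 0.026, below 0 without wild-type replicate 5 or knockout replicate 13), Stag1 (0.019) and Wapl (0.021) in samples with Y-linked transcripts, and Smc3 (-0.021) in samples without them, a setting added after seeing the data. The count of probe sets past the threshold was 3, 14 adjusted for the Y-linked mean, 1 in samples without Y-linked transcripts, and 2 to 6 leaving out 1 sample (6 without knockout replicate 8). The 1 correlated pair in wild-type kidneys became 0 in each of the 7 fits that left out 1 kidney. There the smallest exact p of 6 kidneys, 0.00139, gives 0.0625 for a single pair adjusted over 45. Without wild-type replicate 5 the exact p of Smc1a with Stag2 was 0.0236. The lists of regulators, SMC complexes, meiosis and proliferation and the neighbours of Rec8 had 0 genes past the threshold in limma under every setting. The r of Rec8 with Wapl over all arrays, genotype means subtracted, went from -0.13 to 0.15 with the Y-linked mean regressed out. The number of arrays limits the precision, and signal over background could not be tested.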
